A study of Mus musculus with 8 samples.

Results

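The erythroid regulators followed here are 7 transcription factors or cofactors, Gata1, Klf1, Tal1, Lmo2, Gfi1b, Nfe2 and Zfpm1, and the erythropoietin receptor gene Epor. They were chosen by name, and every array probe whose RefSeq accession belongs to one of them was taken: 9 of 55681 probes, 1 for each gene and 2 for Zfpm1. Each array had been hybridised with total RNA of mesonephric tubules, the tubules of a transient embryonic kidney, which had been microdissected from toluidine blue stained cryosections of mouse embryos of strain C57/BL6. There were 3 arrays labelled p21-null (p21KO -/-, described in the design as non-senescent) and 5 wild-type arrays (described as senescent). p21 is the cyclin-dependent kinase inhibitor encoded by Cdkn1a. The labels used here give neither the embryonic stage and sex, nor the kind of null allele, nor whether embryos were pooled or used singly. The p-values therefore describe the spread between these samples, and that spread may in part be technical.

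Red blood cells arise in the embryo first in the yolk sac and then in the fetal liver. GATA1, a zinc finger factor, binds GATA letters in the control regions of most red cell genes, with ZFPM1 (also called FOG1) as its cofactor. TAL1, a helix-loop-helix factor, joins it in a complex held together by LMO2 and LDB1, and KLF1 binds CACC-type sites, among them that of the adult beta globin promoter. NFE2 pairs with small MAF proteins, and GFI1B is a repressor that works with histone-modifying enzymes. Erythropoietin binds EPOR on erythroid progenitors, which signals through JAK2 and STAT5 and keeps these cells alive. TAL1 and LMO2 are also made by endothelium, and GATA1, NFE2, GFI1B, ZFPM1 and TAL1 by megakaryocytes, the cells that shed platelets.

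Promoters of 4 regulators are shown because these genes had among the largest differences between the groups and were high and low on the same arrays, and because their promoters hold letters that regulators of the same set are known to bind. Each runs from 250 bases before to 50 bases after the start of the gene, 5′ to 3′ on the strand of the gene, from RefSeq on build GRCm38.p6. Capitals mark GATA letters (GATAA or GATAG preceded by A or T, either strand) and KLF-type letters (CCNCNCCC, either strand, overlapping matches run together).
Gata1, chrX:7967861-7968160, minus strand: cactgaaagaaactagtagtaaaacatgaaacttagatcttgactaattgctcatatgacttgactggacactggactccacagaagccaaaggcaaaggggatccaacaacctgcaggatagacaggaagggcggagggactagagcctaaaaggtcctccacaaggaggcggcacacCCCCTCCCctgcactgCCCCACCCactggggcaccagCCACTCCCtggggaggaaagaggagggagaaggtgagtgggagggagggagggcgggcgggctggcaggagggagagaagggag
Klf1, chr8:84901732-84902031, plus strand: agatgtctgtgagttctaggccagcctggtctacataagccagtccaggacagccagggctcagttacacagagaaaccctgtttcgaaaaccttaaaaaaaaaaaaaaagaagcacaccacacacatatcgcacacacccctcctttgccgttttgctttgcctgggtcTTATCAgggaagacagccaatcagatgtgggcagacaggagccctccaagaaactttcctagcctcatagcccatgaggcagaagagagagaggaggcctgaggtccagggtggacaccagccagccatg
Gfi1b, chr2:28621933-28622232, minus strand: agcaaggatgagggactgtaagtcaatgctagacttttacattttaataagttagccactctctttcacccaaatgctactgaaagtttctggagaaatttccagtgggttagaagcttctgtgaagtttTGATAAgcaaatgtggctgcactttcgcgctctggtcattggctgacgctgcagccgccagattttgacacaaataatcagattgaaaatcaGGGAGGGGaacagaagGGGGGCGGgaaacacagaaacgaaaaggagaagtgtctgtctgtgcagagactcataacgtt
Epor, chr9:21963527-21963826, minus strand: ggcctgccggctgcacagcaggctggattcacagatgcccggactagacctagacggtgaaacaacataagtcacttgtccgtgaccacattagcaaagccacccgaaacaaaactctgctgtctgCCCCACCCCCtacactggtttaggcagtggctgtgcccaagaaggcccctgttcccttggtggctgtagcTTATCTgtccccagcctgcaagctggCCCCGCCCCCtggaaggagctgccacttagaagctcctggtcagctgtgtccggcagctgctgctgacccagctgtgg

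The Klf1 promoter holds a GATA match that begins 80 bases before the start and no KLF-type match. The Epor promoter holds both kinds, a GATA match 54 bases before the start and KLF-type matches at 124, 122, 28 and 26 bases. Gfi1b has a GATA match at 120 bases and KLF-type matches at 28 and 12 bases, while Gata1 has KLF-type matches at 71, 55 and 34 bases and no GATA match in this window. The table held 7 promoters for 6 of the regulators, and none for Lmo2 and Nfe2. GATA letters were found in 4 of these 7, against 29.8% of all 32851 promoters in the table, and KLF-type letters in 5 of 7, against 49.5%. E-box letters (CANNTG), which TAL1 and its partners bind, were found in 5 of 7 and in 72.3% of all promoters, and NF-E2 letters (TGANTCA) in 0 of 7 and in 7.81%. A match is a description of the letters and says nothing of binding on these arrays.

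Signals are given as log2 of the processed spot intensity minus the 75th percentile of the same array, so that 0 stands for the 75th percentile and 1 unit for a doubling. A difference is the mean of the arrays labelled p21-null minus the mean of the wild-type arrays on this scale. All 9 probes were well above background on all 8 arrays, so none of these genes was lost to the filter on dim probes. From 82.2% to 89.2% of probes passed the background flag on each array, no spot was saturated, and precision is limited by the small number of arrays. Each of the 3 slides carried arrays of both groups, with local background higher on slides 2 and 3 (94.1 to 138 intensity units) than on slide 1 (39.9 to 46.8). Cdkn1a itself did not set the groups apart: its brighter probe averaged 1.49 ± 0.58 (SD, n = 3) in arrays labelled p21-null and 1.68 ± 0.90 (SD, n = 5) in wild type, and its other probe differed by −0.24 with a standard error of 0.36. No source used here says where these probes lie with respect to the deletion, so the group is called labelled p21-null throughout. Of 14 markers of mesonephric tubule and duct 12 were above background on all 8 arrays, as were 16 of 18 endothelial markers, so that this count does not set the tissue apart. In bulk RNA of this kind, more cells of a type and more RNA per cell cannot be told apart.

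All 8 erythroid regulators had a higher mean in the group labelled p21-null than in wild type, by 2.58-fold (Lmo2) to 5.80-fold (Epor). Epor, Nfe2, Klf1, Gfi1b and Gata1 differed by 4.93-fold to 5.80-fold, Tal1 by 3.83-fold, and the cofactor genes Zfpm1 and Lmo2 by under 3-fold. The median difference was 2.33 on the log2 scale, against −0.0303 over all 33619 genes and unnamed features tested. None of these differences passed correction over the whole array: with limma 0 of 8 had an adjusted p under 0.05, as had 0 of all features (0.0%). At an unadjusted p under 0.05, 8 of 8 were higher, against 6.2% of all features higher at that p (3.91% were lower and 10.1% passed in either direction). Of the 9 probes, 9 were higher at that p, against 5.92% of all 50046 probes. A difference of at least 2 on the log2 scale was met by 5 of 8, against 1.83% of features. For 7 of 8 the lowest array labelled p21-null exceeded the highest wild-type array, which was so for 4.44% of features with a value on all arrays. Since the genes were proposed with earlier results of these arrays known, these counts are descriptions.

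Gata1, the central factor of the red cell programme, had 4.29, 3.06 and 3.87 in labelled p21-null replicates 1 to 3, against 2.44, −0.25, 1.70, 0.70 and 2.60 in wild-type replicates 1 to 5. The groups did not overlap, and wild-type replicate 2 was the lowest array. The difference was 2.30 with a standard error of 0.67 (4.93-fold; limma unadjusted p = 0.00737, adjusted p = 0.313), and the exact permutation test (two-sided, 56 ways of splitting the arrays) gave p = 0.0357. Klf1, the activator of the adult beta globin gene, had 3.78, 3.32 and 3.90 in arrays labelled p21-null, against 1.98, −0.18, 1.44, 0.34 and 2.97 in wild type. Its wild-type arrays spanned 3.14 log2 units, more than the difference between the groups (2.36, standard error 0.67, 5.12-fold; limma adjusted p = 0.307). The wild-type span also exceeded the difference for Gata1 (2.85), Tal1 (2.06), Gfi1b (3.50), Zfpm1 (2.34) and Lmo2 (1.65). It did not for Nfe2 (2.24) and Epor (2.47). The exact permutation test gave p = 0.0536 although the groups did not overlap, because splits with the lowest wild-type arrays as the group of 3 gave differences as large in the other direction.

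Tal1 and Lmo2 encode members of the complex that binds beside GATA1. Tal1 had 4.14, 3.15 and 4.11 in arrays labelled p21-null, against 2.59, 0.73, 1.74, 1.47 and 2.79 in wild type. The groups differed by 1.94, standard error 0.51 (limma adjusted p = 0.291; exact permutation p = 0.0357). Lmo2 had 3.20, 2.01 and 3.16 in arrays labelled p21-null, against 1.84, 0.36, 1.99, 0.95 and 2.004 in wild type. Its groups all but touched, labelled p21-null replicate 2 standing only 0.0093 above wild-type replicate 5. The difference of Lmo2, the smallest of the 8, was 1.37, standard error 0.49 (limma adjusted p = 0.397; exact permutation p = 0.0357).

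Gfi1b, the repressor, was the most variable of the set in wild type. It had 0.86, 0.79 and 1.72 in arrays labelled p21-null, against −0.20, −1.91, −1.63, −2.96 and 0.53 in wild type. It was the only regulator whose lowest array was wild-type replicate 4; for the other 7 it was wild-type replicate 2. The difference was 2.35 with a standard error of 0.74 (5.12-fold; limma adjusted p = 0.344; exact permutation p = 0.0357).

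Nfe2, the partner of small MAF proteins, had 3.12, 2.02 and 3.42 in arrays labelled p21-null, against 1.46, −0.78, 0.48, 0.02 and 1.27 in wild type. It had the widest gap between the groups, 0.55 from the lowest array labelled p21-null to the highest wild-type array. The difference was 2.36 with a standard error of 0.57 (5.14-fold; limma adjusted p = 0.284), and the exact permutation test gave p = 0.0179, the smallest that 56 splits allow. Zfpm1, the cofactor of GATA1, had 1.97, 0.93 and 2.07 in arrays labelled p21-null, against 0.64, −0.87, 0.13, −0.44 and 1.47 in wild type on its brighter probe. It was the only regulator whose groups overlapped, wild-type replicate 5 lying above labelled p21-null replicate 2. The difference was 1.47, standard error 0.55 (limma adjusted p = 0.410; exact permutation p = 0.0714). Its second probe gave 1.72 with a standard error of 0.67, and the probes were at most 0.54 apart on any array.

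Epor had the smallest p of the 8 and, on this scale, the largest difference. In the deposited series table Klf1 (2.318), Gata1 (2.289) and Nfe2 (2.289) differed more than Epor (2.278). After normexp correction Klf1 and Nfe2 differed more than Epor with either scaling, and Gata1 did so with quantile scaling. Klf1 also differed more without labelled p21-null replicate 3 (2.24 against 2.19), and Gfi1b without wild-type replicate 1 (2.61 against 2.51). The Epor signal was 2.09, 1.21 and 2.68 in labelled p21-null replicates 1 to 3. It was −0.63, −1.63, −0.35, −0.93 and 0.83 in wild-type replicates 1 to 5. The arrays labelled p21-null all lay above the 75th percentile of the array, and 4 of 5 wild-type arrays lay below it. The difference was 2.54 with a standard error of 0.56 (5.80-fold; limma unadjusted p = 0.00145, adjusted p = 0.283), and the exact permutation test gave p = 0.0179, again the smallest possible. By unadjusted p Epor ranked 161 of all 33619 features.

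**Figure D1:**
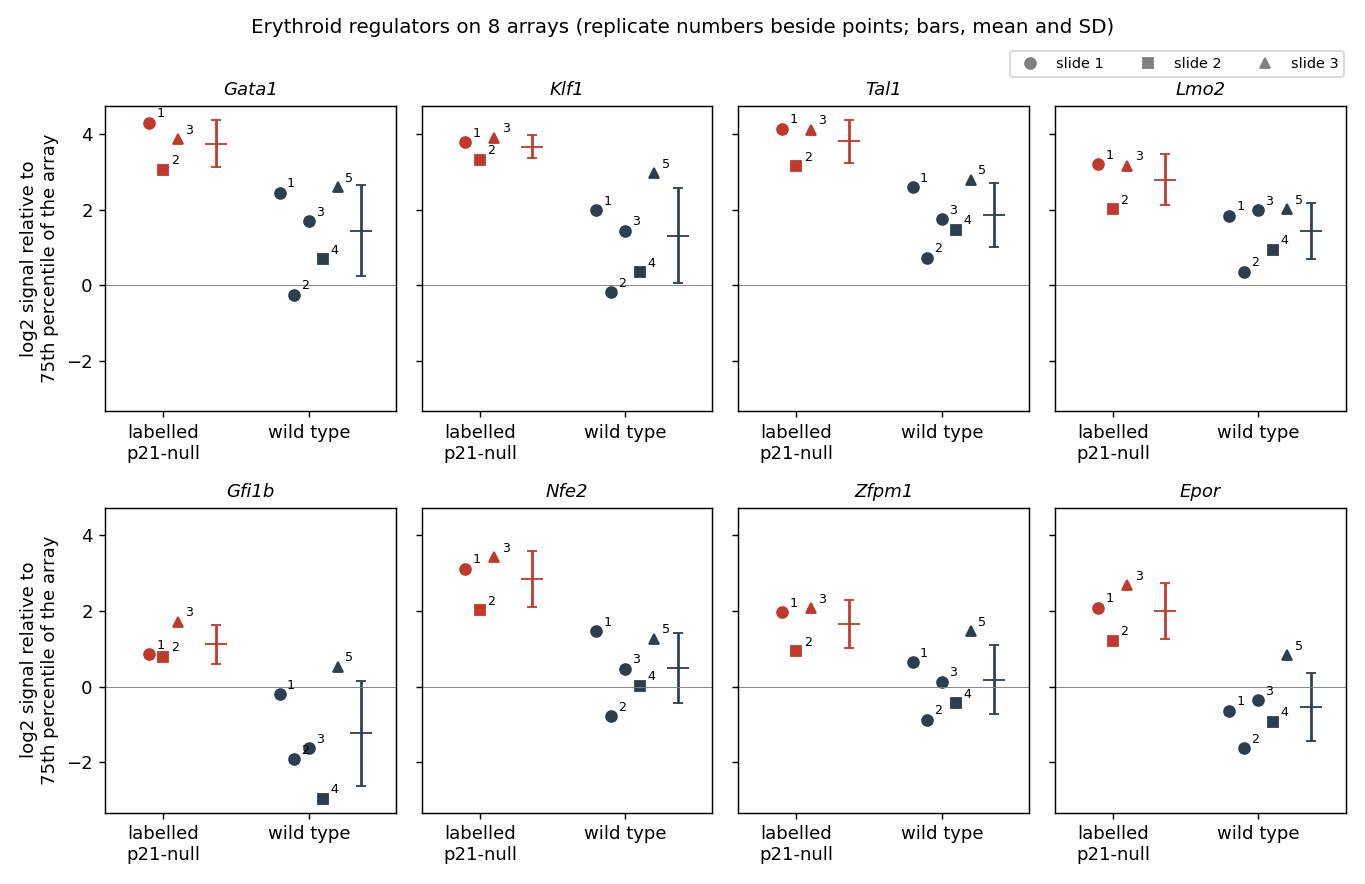
Log2 signal (vertical axis, 0 at each array's 75th percentile) of the 8 regulators on 3 arrays labelled p21-null (red) and 5 wild-type arrays (dark), with replicate numbers, slides as marker shapes, and mean with SD as bars. For 7 of 8 genes all red points lie above all dark points; for Zfpm1 wild-type replicate 5 at 1.47 lies above labelled p21-null replicate 2 at 0.93.

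The arrays kept much the same order from gene to gene. Labelled p21-null replicate 2 was the lowest of its group for 8 of 8 regulators, wild-type replicate 2 was the lowest of all arrays for 7 of 8, and wild-type replicate 5 was the highest of its group for 7 of 8, wild-type replicate 1 taking that place for Nfe2. Over the 8 arrays the 28 pairs of regulators correlated at r = 0.826 to 0.993, with a median of 0.948. With each group's mean removed, the correlations ran from 0.620 to 0.980 with a median of 0.880, so the shared order did not rest on the group difference alone. The closest pair was Tal1 and Nfe2 and the least close Gfi1b and Lmo2. These are descriptions over 8 arrays that share depth and dissection.

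The direction held on every slide. Within slide 1 the differences of the 8 regulators ran from 1.81 to 2.99, within slide 2 from 1.07 to 3.76, and within slide 3, where wild-type replicate 5 is the sole wild-type array, from 0.60 (Zfpm1) to 2.15 (Nfe2). For Epor they were 2.97, 2.14 and 1.85 within slides 1, 2 and 3. For Klf1 they were 2.70, 2.98 and 0.93. Leaving out labelled p21-null replicate 3 or 1 brought the number of regulators at an unadjusted p under 0.05 to 6 in each case, and leaving out wild-type replicate 4 to 7.

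The red cell products, genes for globins, heme synthesis and the red cell membrane, were high and low on the same arrays. Of 26 measured, 22 had a higher mean in the group labelled p21-null and 4 a lower one, 16 at an unadjusted p under 0.05 and 0 after adjustment over the array, with a median difference of 1.75 and 12 without overlap between groups (of all features 6.2% were higher at that p and 4.44% lay wholly above). Ank1, the ankyrin that anchors the red cell skeleton to the membrane, stood at 3.01 ± 0.60 (SD, n = 3) in arrays labelled p21-null and 1.15 ± 0.62 (SD, n = 5) in wild type, without overlap. The list mean was 3.81, 3.12 and 3.92 in labelled p21-null replicates 1 to 3, against 2.38, 1.005, 2.11, 1.52 and 3.14 in wild-type replicates 1 to 5. The regulators correlated with it at r = 0.926 (Gfi1b) to 0.991 (Klf1) over the 8 arrays.

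Of the 6 globin genes in this list 1 was higher at an unadjusted p under 0.05, Hbb-bh1, an embryonic beta-like globin (difference 2.39, standard error 0.69), and 15 of the 20 other red cell products were; whether these shares differ was not tested. Hbq1b, a theta globin gene outside the list, was also higher, by 2.95 (limma unadjusted p = 0.00216). Among the products that are not globins, Hemgn and Ermap differed by −0.081 and 0.055. Hba-a1 averaged 6.59 ± 0.26 (SD, n = 3) in arrays labelled p21-null and 6.42 ± 0.47 (SD, n = 5) in wild type, and Hbb-bt 5.62 ± 0.53 and 5.66 ± 0.43. Hbb-y, the embryonic epsilon-like globin, averaged 5.36 ± 0.26 and 5.42 ± 1.02. These globin genes, Hemgn and Ermap were picked out after their values were seen. Globin genes are close copies of each other, so a probe may read more than 1 of them. The probes of Hba-a1, Hbb-bt and Hbb-y were bright but not saturated. That of Hbb-bh1 was dimmer, averaging 3.65 in arrays labelled p21-null and 1.27 in wild type.

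Set against the mean of the 26 red cell products on the same array, most of the difference in the regulators was gone, and Epor kept the largest part. Relative to that mean Epor stood at −1.72, −1.90 and −1.24 in labelled p21-null replicates 1 to 3, against −3.01, −2.64, −2.46, −2.45 and −2.31 in wild-type replicates 1 to 5. The groups did not overlap, and the difference of 0.95 on the log2 scale gave an exact permutation p of 0.0179, the smallest possible. It was 0.63 against the red cell products without the globins, with the same p, between 0.76 and 1.09 with any 1 array left out, and 0.99, 0.54 and 1.07 within slides 1, 2 and 3. For Gata1, Klf1, Nfe2 and Gfi1b the remaining difference was 0.72 to 0.78, and for Tal1 0.35. Their exact permutation p-values ran from 0.0536 to 0.196. Without the globins in the mean, these differences were 0.39 (Gata1), 0.45 (Klf1), 0.45 (Nfe2), 0.45 (Gfi1b) and 0.028 (Tal1). With all 26 products in the mean, the groups of Klf1 also did not overlap. Klf1 then ran from −0.031 to 0.21 in arrays labelled p21-null and from −1.18 to −0.18 in wild type.

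For Zfpm1 and Lmo2 the remaining differences were −0.11 (exact permutation p = 0.375) and −0.22 (exact permutation p = 0.357). Against the red cell products without the globins Zfpm1 stood at −0.44 (exact permutation p = 0.0357) and Lmo2 at −0.54 (exact permutation p = 0.107). Zfpm1 minus the red cell mean varied by only 0.51 over all 8 arrays, while Zfpm1 itself varied by 2.94. The sign of the Zfpm1 value turned to 0.0032 without labelled p21-null replicate 2. These were 8 of 16 such comparisons, the other 8 being against endothelial markers, and their p-values are unadjusted. Against the 6 globins alone, a choice made after the data were seen, all 8 regulators were higher in the group labelled p21-null, by 0.87 (Lmo2) to 2.04 (Epor), with exact permutation p-values from 0.0179 to 0.0536.

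A difference from the red cell mean takes for granted that a regulator moves by 1 unit when the mean does. Among the 5 wild-type arrays alone the fitted slope was 1.53 for Klf1, 1.41 for Gata1 and 1.45 for Gfi1b, but 1.06 for Epor, 1.03 for Nfe2 and 0.98 for Tal1. Extended to the arrays labelled p21-null, the wild-type line of Gata1 passed within 0.35 of all of them, no farther than its own wild-type points (up to 0.51). Epor lay above its line by 0.76, 0.61 and 1.23 in labelled p21-null replicates 1 to 3, and no wild-type array was more than 0.46 from it. Nfe2 lay above its line by 0.80, 0.42 and 0.998, with wild-type arrays up to 0.61 away. Zfpm1 lay on the other side of its line, at −0.20, −0.46 and −0.22, with wild-type arrays up to 0.14 away. Like Nfe2, Tal1 lay above its line, by 0.53, 0.22 and 0.39, with wild-type arrays up to 0.38 away. Klf1 lay to both sides of its line, at −0.26, 0.35 and −0.31, with wild-type arrays up to 0.18 away. Gfi1b and Lmo2 also lay to both sides, no farther than their own wild-type points. Lines through 5 points are descriptions, and no test was made of them.

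**Figure D2:**
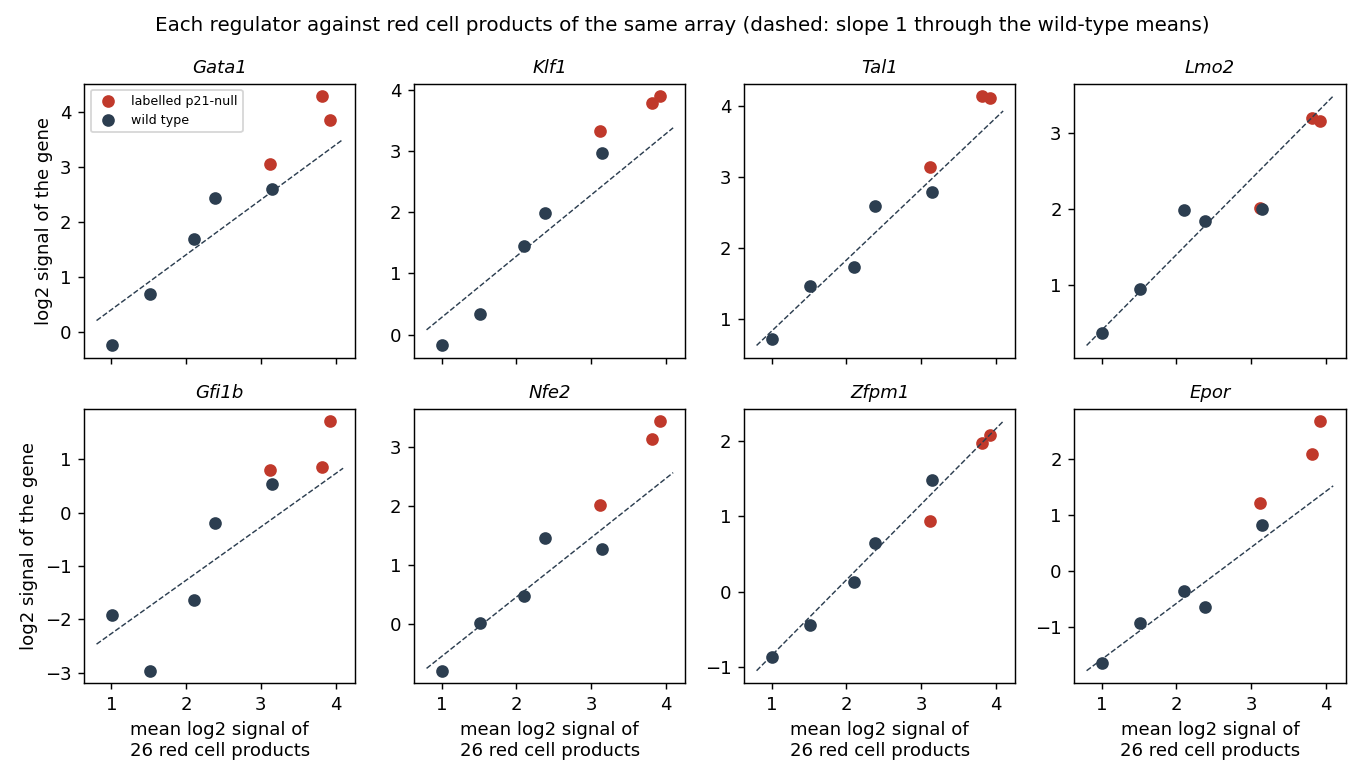
Log2 signal of each regulator (vertical) against the mean log2 signal of 26 red cell products on the same array (horizontal), for arrays labelled p21-null (red) and wild type (dark), with a dashed line of slope 1 through the wild-type means. All 3 red points of Epor lie above the line, their signal minus the red cell mean running from −1.90 to −1.24 against −3.01 to −2.31 in wild type, while Zfpm1 lies near the line, labelled p21-null replicate 2 below it (−2.18 to −1.84 against −1.98 to −1.67).

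Genes of signalling by the receptor differed among themselves. Of 18 Epo signalling genes 16 were higher there and 2 lower, 6 at an unadjusted p under 0.05 and all 6 of these higher (6.2% of all features), with a median difference of 0.47. Bcl2l1, the survival gene that erythroid cells depend on, had 4.51 ± 0.26 (SD, n = 3) against 3.04 ± 0.46 (SD, n = 5), differing by 1.47, standard error 0.34 (limma adjusted p = 0.283), without overlap. Among wild-type arrays Bcl2l1 was lowest in replicate 5 (2.50), the highest wild-type array for 7 of 8 regulators. Pim1, a kinase gene induced by STAT5, was 3.37-fold higher. Ptpn6, the phosphatase that ends EPOR signalling and is abundant in blood cells generally, was 6.13-fold higher without overlap. Stat5b and Stat5a, the factors that carry the signal to the nucleus, differed by 0.87 and 1.002 with standard errors of 0.30 and 0.44. Mcl1, another survival gene, differed by 0.42 (0.37), and the STAT5 targets Cish, Socs3, Socs2 and Socs1 by 0.42, 0.52, −0.28 and −0.59, none at an unadjusted p under 0.05. These 5 genes are named after their values were seen.

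The kinase gene Jak2 differed by 0.45 (standard error 0.36), and Epo by 0.14 with a standard error of 0.58, its signal averaging −2.80 ± 1.37 in arrays labelled p21-null and −2.94 ± 0.50 in wild type. Kit, the stem cell factor receptor gene of early erythroid progenitors, differed by 0.43 with a standard error of 0.39. None of these 3 passed an unadjusted p of 0.05. No gene of this list passed after adjustment over the array (0 of 18).

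The partners in the GATA1 and TAL1 complexes were split between higher and lower. Of 21 measured 13 were higher and 8 lower, 3 higher and 1 lower at an unadjusted p under 0.05 (6.2% and 3.91% of all features), and the median difference was 0.19. Mafk, a small MAF partner of NFE2, had 1.04 ± 0.52 (SD, n = 3) against −0.82 ± 0.52 (SD, n = 5), differing by 1.86, standard error 0.39, without overlap. Lyl1, the close relative of Tal1, was 6.15-fold higher without overlap. Gfi1, the relative of Gfi1b that acts in white cells, was 9.43-fold higher, its signal passing the background flag on 4 of 5 wild-type arrays. That fold includes wild-type replicate 3 at −7.86, the other wild-type arrays running from −4.69 to −3.47. Ldb1, the bridge of the TAL1 complex, differed by 0.19 (standard error 0.36), Gata2, which precedes GATA1 in progenitors, by 0.25 (0.61) and Runx1 by 0.54 (0.41). The gene lower at that p was Tcf12, an E protein that pairs with TAL1, at −0.78, named after its value was seen; 1 of 21 is near the share of all features.

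Among 16 other erythroid regulators 15 were higher and 1 lower, 10 at an unadjusted p under 0.05 and all 10 higher (6.2% of all features), with a median difference of 1.24. Trim10, an erythroid TRIM gene, had 3.58 ± 0.59 (SD, n = 3) against 1.29 ± 0.89 (SD, n = 5), and Trim58, which acts in late erythroblasts, was 7.96-fold higher, also flagged above background on 4 of 5 wild-type arrays. The Trim58 fold includes wild-type replicate 4 at −7.24, the other wild-type arrays running from −4.49 to −4.13. E2f2, the cell cycle factor of dividing erythroblasts, was 3.37-fold higher. Myb, needed by definitive progenitors, differed by 1.63 with a standard error of 0.45 and without overlap, and Klf3 by 1.16 with a standard error of 0.40. Spi1, which encodes the myeloid factor PU.1 and opposes GATA1, was 4.18-fold higher. Bcl11a, a repressor of embryonic globins, differed by 0.56 with a standard error of 0.68. None of these genes had an adjusted p under 0.05.

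**Figure D3:**
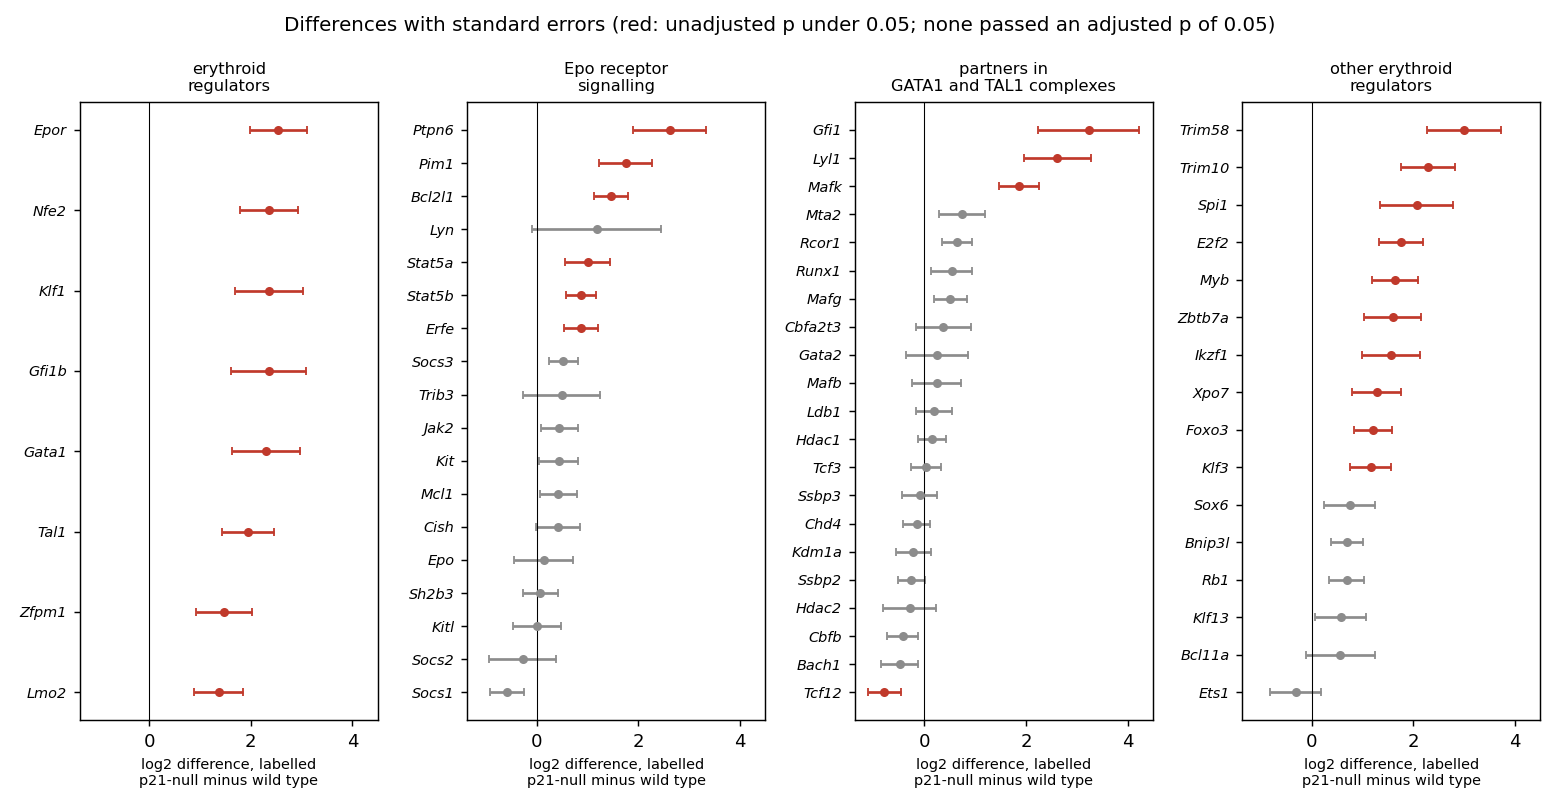
Log2 differences (horizontal, labelled p21-null minus wild type, with standard errors) of the 8 regulators and of 3 further lists, red where the unadjusted p was under 0.05. All 8 regulators, 6 of 18 Epo signalling genes, 4 of 21 partners and 10 of 16 other erythroid regulators are red; none had an adjusted p under 0.05.

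Markers of several other cell types were also mostly higher in the group labelled p21-null. Liver markers had the median difference nearest to that of the regulators, 2.34. All 14 were higher, 13 at an unadjusted p under 0.05 (6.2% of all features). Apoa1, a plasma apolipoprotein, differed by 3.50, Ahsg, the fetuin gene, by 2.35 and Fga, the fibrinogen alpha chain, by 3.32. The liver mean ran from 3.17 to 4.51 in arrays labelled p21-null and from −0.56 to 3.57 in wild type, and correlated with the regulators at r = 0.819 to 0.957. Macrophage markers had a median difference of 1.38, 11 being higher and 2 lower, with 9 of 13 higher at an unadjusted p under 0.05. Those of smallest p were Tyrobp, Laptm5 and Ctss at 1.62, 2.09 and 1.56, and the 2 lower were Csf1r and Cx3cr1 at −0.26 and −0.15, named after their values were seen; the list mean ran from 0.60 to 1.29 against −0.69 to 0.76. All 14 liver and all 13 measured macrophage markers were above background on all 8 arrays. The part that RNA of liver or of blood cells has in the differences of the regulators was not tested.

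Megakaryocyte and platelet markers, which share GATA1, NFE2 and GFI1B with red cells, were higher for 17 of 18 genes with a median difference of 1.54, 7 higher at an unadjusted p under 0.05 (6.2% of all features). Gp9 and Ppbp, a platelet receptor subunit and a platelet chemokine, were 13.8-fold and 11.8-fold higher but overlapped, and Mmrn1, the platelet multimerin, was above background on 1 of 5 wild-type arrays. Their mean stood at −0.80, −1.36 and 1.42 in labelled p21-null replicates 1 to 3, with replicate 3 above the other 2. In wild type it ran from −2.95 to −1.02, so the groups overlapped. Blood progenitor markers had a median difference of 1.15, 8 of 10 being higher and 2 lower (Cd34 at −0.21 and Meis1 at −0.049, named after their values were seen), with 4 higher at an unadjusted p under 0.05. Of those with the smallest p, the homeobox gene Hhex was 5.44-fold higher without overlap, while Mpo, the peroxidase of early granulocytes, and Prtn3, at 14.3-fold and 5.11-fold, overlapped. Correlations with the regulators were 0.676 to 0.849 for the platelet mean and 0.674 to 0.848 for the progenitor mean. These correlations hold the group difference. Wild-type replicate 2 was the lowest of all arrays for 7 of 8 regulators. In the platelet, progenitor and macrophage means it stood at −2.15, −1.40 and −0.040, above every wild-type array but replicate 5.

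Endothelial markers, which share Tal1 and Lmo2 with red cells, showed no common direction. Of 18, 10 were higher and 8 lower, with a median difference of 0.044. At an unadjusted p under 0.05 there were 0 of 18, against 10.1% of all features in either direction. A count this small is near that share. Their mean ran from −1.74 to −0.42 in arrays labelled p21-null and from −1.74 to 0.17 in wild type, and correlated with Tal1 at r = 0.016 and with Lmo2 at r = 0.134. Relative to that mean Tal1 was higher by 2.06 and Lmo2 by 1.49 in the arrays labelled p21-null (exact permutation p = 0.0536 for each). Tek, an endothelial receptor gene, differed by 0.60 (standard error 0.41), Sox18 by −2.52 (1.35) and Sox17 by −0.9996 (0.72), the SOX genes passing the background flag on 2 of the 3 labelled p21-null and all 5 wild-type arrays. The Sox18 difference rested on labelled p21-null replicate 2, at −7.86. Replicates 1 and 3, at −2.16 and −2.07, lay within the wild-type range of −3.59 to −0.27.

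Mast cell, basophil and eosinophil markers had a median difference of −0.0025 over 10 measured genes, with Siglecf at 1.17, Ear1 at 1.40 and Mcpt4 at −1.66. Markers of mesonephric tubule and duct had a median difference of −0.89, with 11 of 14 lower. Wt1, the Wilms tumour factor of nephric mesenchyme and podocytes, differed by −1.33 with a standard error of 0.40 and did not overlap. Ret, the receptor gene of the duct, had no spot well above background in the group labelled p21-null. It passed that flag on 4 of 5 wild-type arrays. With p21-null values raised to at least the lowest flagged signal of their array, the means differed by 2.26-fold. The groups overlapped, wild-type replicate 2 standing at −8.09 (on the values as measured, limma unadjusted p = 0.0584, adjusted p = 0.517). The tubule mean ran from −2.44 to −1.62 in arrays labelled p21-null and from −2.16 to −0.06 in wild type, and correlated with the regulators at r = −0.513 (Epor) to −0.228 (Gata1).

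**Figure D4:**
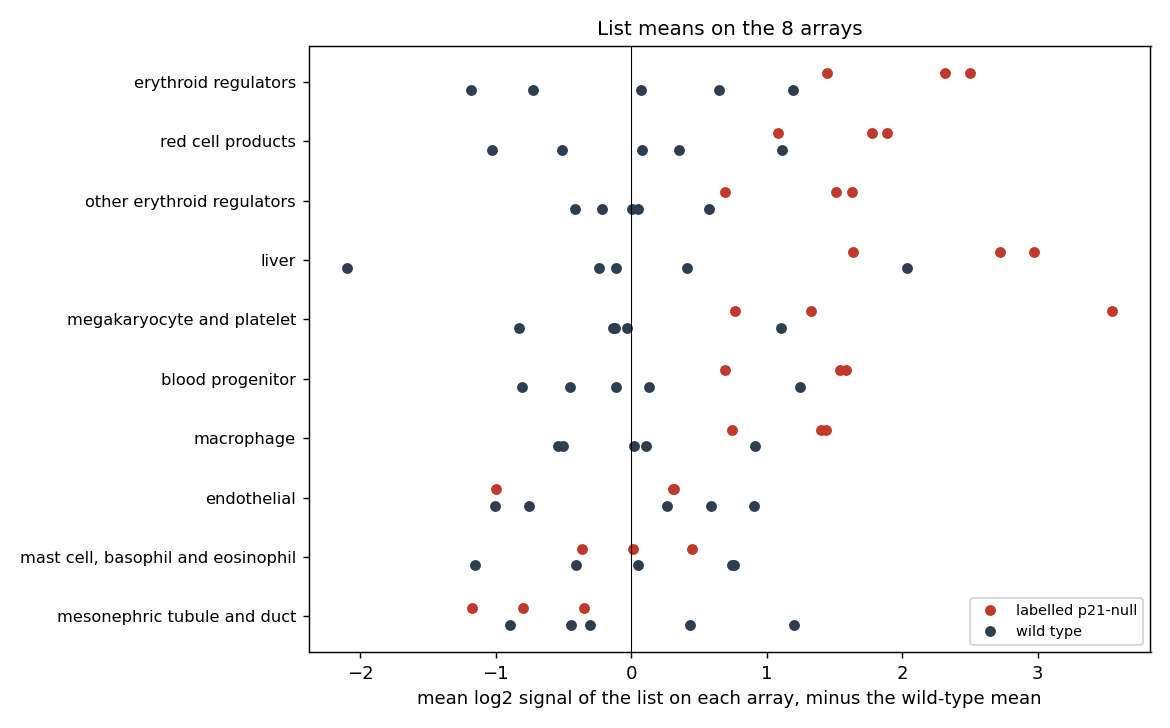
Mean log2 signal of each gene list on each array minus its wild-type mean (horizontal), for 3 arrays labelled p21-null (red) and 5 wild-type arrays (dark). Regulators, other erythroid regulators, red cell products and liver markers lie mainly to the right in red, as do platelet, blood progenitor and macrophage lists. Endothelial and mast cell lists overlap around 0, and the tubule and duct list lies to the left in red.

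The genes most like each regulator over the 8 arrays were sought among 16916 named genes above background on at least 6 of them. Among the genes closest to Gata1 were Fabp1, a fatty acid binding protein of liver (r = 0.992), and Rgn, the regucalcin of liver (0.991). Klf1 was closest to Pklr, the pyruvate kinase of liver and red cells (0.996), Cldn13 and Ucp2. Tal1 was closest to the globin gene Hbq1b (0.999), to Tspan33, a membrane protein of erythroblasts, and to Abcb10, a mitochondrial transporter of red cells. Nfe2 was closest to Tal1 (0.993), Slc16a10 and Hbq1b.

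Among the genes closest to Zfpm1 were Cpb2, a carboxypeptidase made by liver (0.995), and Fech, the last enzyme of heme synthesis (0.986). Lmo2 was closest to Fam214b (0.997), to Leap2, a liver peptide, and to Tent5c. Gfi1b was closest to Hkdc1 (0.982), Upk3a and Ccrl2. Epor was closest to the class I gene H2-T3 (0.995), to Apoa1 (0.991) and to 1300017J02Rik (0.989). These likenesses hold the group difference and cover 8 arrays.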

How the data were processed

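Total RNA of microdissected mesonephric tubules was hybridised in 1 colour to 8 Agilent arrays. Per the file headers, spots were read with Agilent Feature Extraction 10.7.3.1, and the deposited intensity of a spot is linear, background-subtracted and detrended, with no scaling between arrays. The authors' series table holds log2 values per probe with equal medians and extremes in each column. The submitters' processing notes name limma; no other step is stated in the sources used here.

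RefSeq (GRCm38.p6) named 26056 of 55681 probes through unversioned accessions. From log2 of the processed intensity the 75th percentile of each array was subtracted, outlier spots were left out and spots of a probe averaged. Probes well above background on at least 3 of 8 arrays were kept (50046), and the probe with the highest mean stood for a gene (33619 genes and unnamed features). The tests were limma 3.58.1 in R 4.3.3 (no covariate, Benjamini-Hochberg over all features) and two-sided exact permutation over 56 splits. On simulated data with the spread of these 33619 features, 26% of genes given a difference of 2 and 68% of those given 3 (log2) were recovered at an adjusted p under 0.05. The simulated noise was independent between genes and only 200 genes were changed, 50 of each size. The shares may therefore differ on these arrays, where many genes move together. The genes and lists were chosen with earlier results of these data known. Named were the 8 regulators, Cdkn1a, the 3 genes of smallest p in each list, a fixed set of Epo and GATA1 pathway genes and the 3 genes most like each regulator; other names are said to be chosen later. Some genes that this rule names are not reported here. Ahsp, Hbb-bs, Cd68, Tpsab1, Fcer1a and Ms4a2 gave no value under these rules. Alternatives covered scaling, background correction, dim probes, slide, replicate number, the rule from probe to gene, moderation, weights, the series table and leaving out each array.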

Additional observations from a re-analysis of the deposited data

How the results depend on the processing

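The differences of all 8 regulators stayed positive under all 25 alternatives each, of which 3 take a slide singly and have no test; none of the tested ones reached an adjusted p of 0.05. Leaving out 1 array gave 1.88 to 2.64 for Gata1, 1.98 to 2.77 for Klf1, 1.65 to 2.26 for Tal1, 1.10 to 1.76 for Lmo2, 1.92 to 2.80 for Gfi1b, 2.04 to 2.78 for Nfe2, 1.21 to 1.84 for Zfpm1 and 2.19 to 2.93 for Epor. The smallest adjusted p of a regulator was 0.0539 (Epor, array weights). Relative to the red cell products, calls at an exact p under 0.05 appeared for Gata1 without wild-type replicate 1 (range over arrays left out 0.54 to 0.88), for Nfe2 without wild-type replicate 1 or labelled p21-null replicate 2 (range 0.65 to 0.95), and for Zfpm1 without the globins (−0.44); Zfpm1 ran from −0.17 to 0.0032 and Lmo2 from −0.35 to −0.077 with 1 array left out. Without the globins the remaining difference of Tal1 was 0.028 and that of the others between −0.54 and 0.63. The cause was not tested. Against the globins alone the values were 1.80 (Gata1), 1.86 (Klf1), 1.44 (Tal1), 1.86 (Nfe2), 1.86 (Gfi1b), 0.98 (Zfpm1) and 0.87 (Lmo2). Over all features, those past an adjusted p of 0.05 numbered 13 with array weights, which put 4.02 on labelled p21-null replicate 3, 3 with normexp and the 75th percentile, 1 without wild-type replicate 4 and 0 otherwise; none was a regulator. Features higher at an unadjusted p under 0.05 numbered 2084, but 1000 without labelled p21-null replicate 3 and 3869 with array weights; those lower numbered 1316, but 738 and 750 without labelled p21-null replicate 1 or 3 and 2623 with array weights. Same-numbered arrays deviated from their group means with r of 0.0645, −0.0841 and −0.0739, so the numbers do not pair the arrays. For each array labelled p21-null the highest such r was with a wild-type array of its own slide (0.082, 0.139 and 0.228). The main fit has no slide term. With the replicate block, which uses replicates 1 to 3 of each group, the differences of all 8 regulators kept sign and call, Epor at 2.87.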
